A study of Nothobranchius furzeri with 6 samples.

Results

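The let-7 and lin-4 families are described here in brain of Nothobranchius furzeri, the turquoise killifish, an annual fish whose short life makes it a model of vertebrate ageing. They are 2 of the 324 rows of the authors' table of raw counts, found by their exact row names, nfu-let-7 and nfu-lin-4. The name lin-4 also covers miR-125, the form in which the family is usually named in vertebrates, and the let-7 row gives 1 count per library under the family name. The sources used here do not say which paralogues and hairpin arms were summed in each row. The 6 small RNA libraries all belong to 1 group: brains of males of strain MZM-04/10p aged 39 weeks, with no treatment or genetic change named in the labels. With 1 age, sex and strain there is no contrast between conditions, and the data give levels, the spread between libraries and comparisons between families. Each library title carries its own code, but the labels do not state that each library came from a separate fish. The p-values therefore rest on a spread between 6 libraries that may be technical.

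let-7 and lin-4 were discovered in the worm Caenorhabditis elegans as heterochronic genes, that is, genes that time the steps of larval development. There lin-4 represses the early-stage genes lin-14 and lin-28, and let-7 later represses lin-41. In vertebrates both families are known to rise as cells leave the stem cell state, and the RNA-binding protein LIN28 blocks the maturation of let-7 precursors and is itself a target of both families. In the mature vertebrate brain both are known as abundant families. In many animals let-7 and miR-125 genes lie in a cluster with a member of the miR-10 group (miR-100 or miR-99).

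Total counts per library ranged from 11924483 to 16597229, in 6 columns that each matched 1 label. Values are CPM, counts per 1000000 counts of a library, after scaling by edgeR's TMM factors, which lay between 0.958 and 1.05. Log2 values are log2(CPM + 1). The libraries carried miRNAs known from brain: 5 neuronal marker families together held 8.15% to 12.6% of counts, and oligodendrocyte families 1.66% to 2.06%. Each neuronal family had a row above 0, but so did every family on the other marker lists, so presence alone does not mark brain. Red blood cell families held 0.0186% to 0.0643%, white blood cell and microglial families 0.0398% to 0.0589%, and vessel wall families 0.669% to 1.04%. Muscle families held 0.0763% to 0.131%, liver mir-122 0.000900% to 0.00111%, and the epithelial families mir-203 and mir-205 0.00830% to 0.0567%. The epithelial family mir-8 was not on that list and stood at 451 ± 204 CPM (SD, n = 6). Libraries were made with a kit that ligates adaptors to the RNA ends, a step whose efficiency depends on sequence, so each ratio between families holds that bias as well as abundance.

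let-7 was the 3rd and lin-4 the 5th most abundant of the 324 rows by mean level. let-7 stood at 84818, 93022, 88394, 89185, 88939.5 and 83504 CPM in libraries 1 to 6, a mean of 87977 ± 3406 CPM (SD, n = 6). The 6 values lay close together, with library 2 highest, library 6 lowest and a 1.11-fold range. lin-4 stood at 54971, 52485, 46529, 51795.5, 56150 and 57518 CPM in libraries 1 to 6, a mean of 53241 ± 3936 CPM (SD, n = 6). Library 3 was the lowest for lin-4 and library 6 the highest, a 1.24-fold range, and the lowest let-7 value lay above the highest lin-4 value. Counting error was far smaller than these differences between libraries. The exact 95% interval was 92874 to 93171 CPM for let-7 in library 2, 46430 to 46628 CPM for lin-4 in library 3 and 57387 to 57648 CPM for lin-4 in library 6. Counting error alone would give a log2 SD of 0.0013 for let-7 and 0.0017 for lin-4.

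**Figure D1:**
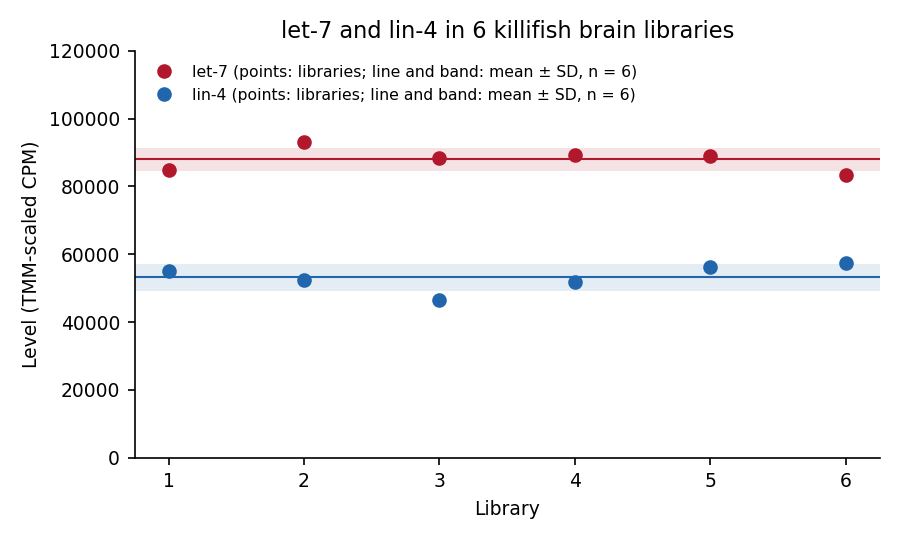
Levels of let-7 (red) and lin-4 (blue) in TMM-scaled CPM on a linear axis from 0, for libraries 1 to 6; lines and bands are the mean ± SD over 6 libraries. The let-7 points sit between 83504 and 93022 CPM, all above the lin-4 points, which sit between 46529 and 57518 CPM.

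Seen as shares without TMM scaling, let-7 held 8.72%, 9.43%, 9.26%, 8.76%, 8.66% and 8.001% of all counts in libraries 1 to 6. lin-4 held 5.65%, 5.32%, 4.87%, 5.09%, 5.46% and 5.51%. The library with the lowest let-7 share, library 6, was thus among the higher ones for lin-4, and library 3, lowest for lin-4, was among the higher ones for let-7. Together the 2 families held 14.1% ± 0.424 (SD, n = 6), from 13.5% in library 6 to 14.7% in library 2. The coefficient of variation of this joint share was 3.004%, against 5.73% for the let-7 share and 5.45% for the lin-4 share. A sum tends to vary relatively less than its parts even where these are unrelated, so the lower value shows no link between the families. Without TMM scaling, Pearson's r of their log2 levels was -0.54, which did not pass (exact permutation p = 0.271, adjusted p = 0.780 over 13 pairs). The most abundant row, mir-181, took a large part of every library. With mir-181 left out of the total, let-7 held 12.5% ± 0.904 and lin-4 7.52% ± 0.438 (SD, n = 6 each).

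Within each library, let-7 and lin-4 were compared as whole rows, since how many paralogues each row sums is not known. let-7 had 1.54, 1.77, 1.90, 1.72, 1.58 and 1.45 times the counts of lin-4 in libraries 1 to 6. It was the higher in all 6 libraries, and the mean log2 ratio was 0.73 ± 0.14 (SD, n = 6), or 1.66-fold. By an exact sign-flip permutation test, two-sided, p was 0.03125, below which 6 libraries cannot go, and 0.0369 after adjustment over the 13 pairs compared. The adjusted value depends on how many of the 13 pairs reach that smallest p. Among them are 4 pairs with mir-181 or mir-26, whose direction followed from the choice. This pair too was compared with earlier results of these data known, so its p-values describe an order and are no independent test. The ratio was highest in library 3, with 16597229 counts in all, followed by library 2, with 14531614 counts. These are the 2 deepest libraries, but library 4, with the fewest counts at 11924483, had the next ratio, and the part of depth in the ratio was not tested.

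Against the other abundant rows, let-7 and lin-4 kept a nearly fixed place. let-7 ranked 3rd in 5 libraries and 4th in library 4, and lin-4 ranked 5th in libraries 1, 2 and 5 and 6th in libraries 3, 4 and 6. Above let-7 stood mir-26, a family found in most tissues, at 124024 ± 15278 CPM. let-7 lay below it in 6 of 6 libraries, with a log2 ratio of -0.49 ± 0.20 (SD, n = 6). mir-26 and mir-181 were taken for comparison because they are the most abundant rows of these data, so that let-7 and lin-4 lie below them follows from the choice and is given as a description. Between the 2 families stood mir-128, a family enriched in neurons, at 65311 ± 14644 CPM. let-7 exceeded mir-128 in 5 of 6 libraries with a log2 ratio of 0.46 ± 0.30, and this did not pass (exact sign-flip permutation p = 0.0625, adjusted p = 0.0677, n = 6). The exception was library 4, where let-7 was at 89185 CPM and mir-128 at 92541 CPM. lin-4 lay below mir-128 in 6 of 6 libraries, with a log2 ratio of -0.27 ± 0.29 (SD, n = 6, exact sign-flip permutation p = 0.03125, adjusted p = 0.0369). That mean rested in part on library 4, which had a log2 ratio of -0.84 where the others lay between -0.23 and -0.061, and it was -0.16 without library 4. Earlier results of these data were known when mir-128 and the partners below were chosen. The p-values against them therefore describe an order of rows and are no independent test of it.

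lin-4 and mir-9, which in vertebrates acts in neural progenitors and represses the nuclear receptor TLX, could not be ordered. mir-9 stood at 52186 ± 3512 CPM. The log2 ratio of lin-4 over mir-9 was 0.028 ± 0.067 (SD, n = 6), with lin-4 higher in 3 of 6 libraries (exact sign-flip permutation p = 0.375, adjusted p = 0.375) and single ratios between -0.050 and 0.12. let-7 exceeded mir-9 in all 6 libraries, by a log2 ratio of 0.76 ± 0.13 (exact sign-flip permutation p = 0.03125, adjusted p = 0.0369, n = 6).

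Of 3 cluster partner names looked for, mir-10, mir-99 and mir-100, only mir-10 had a row. Whether miR-99 and miR-100 are counted in it is not known. The row may thus not stand for genes clustered with let-7 and lin-4. mir-10 stood lower than both families and was less even. It was at 35476, 35199, 41320, 26310, 30365 and 45662 CPM in libraries 1 to 6. let-7 exceeded it by a log2 ratio of 1.32 ± 0.32 and lin-4 by 0.60 ± 0.31, each in 6 of 6 libraries (SD, n = 6, exact sign-flip permutation p = 0.03125, adjusted p = 0.0369 each). The classical neuronal family mir-124, which drives neuronal differentiation, was far lower in this table at 4069 ± 599 CPM. let-7 had 21.8 times and lin-4 13.2 times its counts, log2 ratios of 4.45 ± 0.24 and 3.72 ± 0.28 (SD, n = 6, exact sign-flip permutation p = 0.03125, adjusted p = 0.0369 each). mir-181, known from brain and lymphoid tissue, exceeded both, with log2 ratios of -1.73 ± 0.08 for let-7 and -2.46 ± 0.12 for lin-4 over it (SD, n = 6). Of the 9 pairs without mir-26 and mir-181, 7 passed, with p-values adjusted over all 13. The 13 hold the 4 pairs with mir-26 or mir-181, whose direction followed from the choice. The other partner families were also chosen with earlier results of these data known. Passes against them therefore describe the order of these rows and are no independent test of it. Because the smallest p is 0.03125, the adjusted p does not tell a large ratio from a small one.

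**Figure D2:**
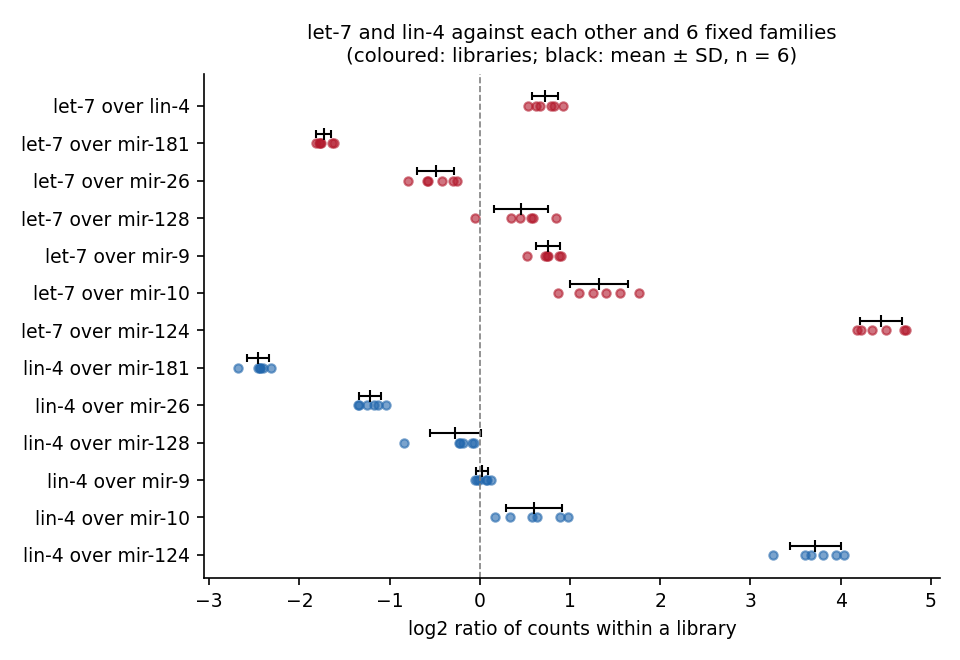
Log2 ratio of counts within a library for the 13 pairs of let-7 or lin-4 with each other and with 6 fixed families; coloured points are libraries, black marks the mean ± SD over 6 libraries, and the dashed line is equality. Points of let-7 over mir-128 and of lin-4 over mir-9 fall on both sides of equality, and the other 11 pairs stay on 1 side.

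The next question was how much the 2 families varied between brain libraries of like age, sex and strain. Neither was called as varying more than features of like abundance. By edgeR's goodness-of-fit test over 214 features, 8 features were called, or 3.74%, and neither let-7 nor lin-4 was among them (adjusted p = 0.99988 for each). Nor were they among the 18 features, or 8.41%, with an unadjusted edgeR p under 0.05 (0.99988 for let-7 and 0.997 for lin-4). Neither was among the 3 dispersion outliers of DESeq2, 1.4% of the features. The deviance per degree of freedom was 0.018 for let-7 and 0.066 for lin-4, where 1 would be expected at the fitted trend and the median of all 214 was 0.32. No tested feature had a lower deviance than let-7, and 25 had a lower one than lin-4. The trend that sets this scale was wide, with a biological coefficient of variation of 0.289 at the abundance of let-7. The test is thus conservative for most features. On data simulated at this wide trend it found 8% of features with an added log2 SD of 1. That share does not hold for features as even as let-7 and lin-4, because every row was simulated at the trend and none at its own spread. The test could hardly have called families as even as these. Against counting error alone both families varied: the Poisson index of dispersion was 1751 for let-7 and 4412 for lin-4, under a rule that called 177 of the 214 features, or 82.7%.

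On the log2 scale the SD over 6 libraries was 0.056 for let-7 and 0.11 for lin-4, against a median of 0.27 over the 214 features tested and 0.17 over the 15 most abundant. let-7 had the lowest SD but 1, after mir-181 with 0.055. lin-4 was 17th from the lowest over all tested features and 5th among the 15 most abundant, where mir-22, a broadly expressed family, had 0.088 and mir-9 had 0.095. The 1 added to CPM lowers the SD of the scarcest rows, so ranks and the median over all 214 compare unlike rows. For example, mir-624 at 0.99 CPM had an SD of 0.53 for a 9.47-fold range. The order of the 2 families depended on the scaling, since with plain CPM the SD was 0.084 for let-7 and 0.080 for lin-4, the 5th and 3rd lowest of 214, while with DESeq2 size factors it was 0.060 for let-7 and 0.11 for lin-4. let-7 was therefore not shown to be the steadier of the 2. The lin-4 spread also rested on library 3, where lin-4 lay 12.6% below its mean: without library 3 its log2 SD was 0.064. Library 3 was also the deepest and held the highest share of the epithelial families mir-203 and mir-205 (0.0567%, against 0.00830% to 0.0324%). The epithelial family mir-8, more abundant than either by mean level, is not in that share. Its levels in single libraries are not given here, so the share does not speak for epithelial families in general. The summed share of the 5 neuronal families was lowest in library 3 (8.15%, against 9.01% to 12.6% in the others), but its members differed. Levels of the members mir-153 and mir-137 in single libraries are not given here. Of the other members, mir-128 and mir-132 were at their lowest in library 3, 49363 and 16274 CPM, and mir-124 was at its highest, 4885 CPM. The part of these in the lin-4 level was not tested.

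**Figure D3:**
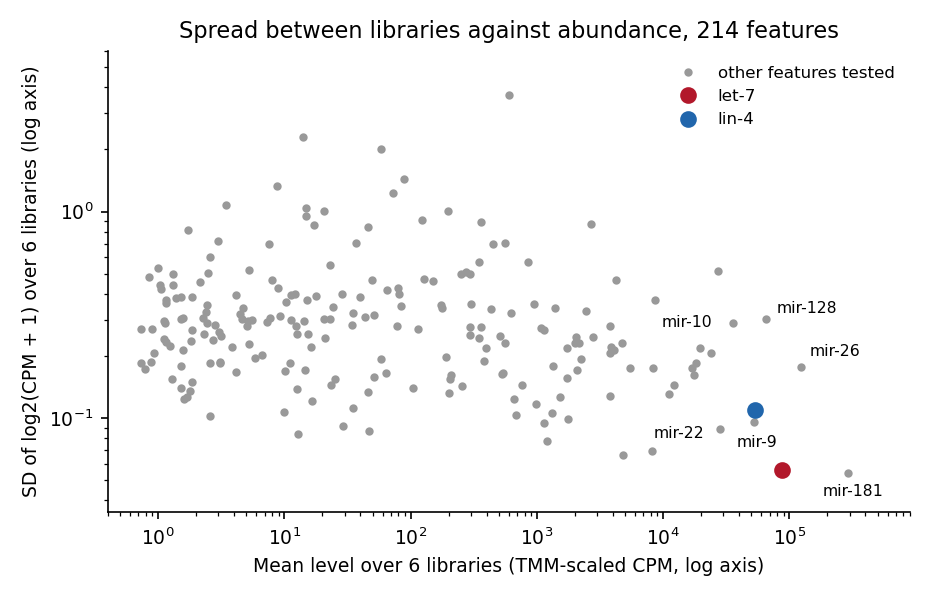
SD of log2(CPM + 1) over 6 libraries against mean CPM for the 214 features tested, whose mean count was 10 or more, both axes logarithmic; each point is 1 feature. let-7 (red) has an SD of 0.056 and lies at the lower edge beside mir-181 with 0.055, and lin-4 (blue) has 0.11, close to mir-9 with 0.095.

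let-7 and lin-4 were next compared over the 6 libraries, to see whether their levels moved together. They did not pass as a related pair: Pearson's r of their log2 levels was -0.44 (exact permutation p = 0.401, adjusted p = 0.840 over 13 pairs) and Spearman's rho was -0.49 (exact permutation p = 0.356, adjusted p = 0.923). Without libraries 2 and 6, the farthest from the let-7 median, r was -0.29. None of the 12 pairs with other families passed either, with 0 of 13 adjusted p-values under 0.05 and 0 unadjusted ones. The largest r was that of lin-4 with mir-9, 0.79 (exact permutation p = 0.0542, adjusted p = 0.442), with rho of 0.83 (exact permutation p = 0.0583, adjusted p = 0.445). Without libraries 3 and 6, the farthest from the lin-4 median, r was 0.34. The 4 libraries left span a narrower range of lin-4 levels, so this lower r cannot decide whether the relation holds. The same omission gave an r of 0.94 for lin-4 with mir-181, which had 0.017 over all 6 libraries (exact permutation p = 0.976, adjusted p = 0.978) and a rho of 0.029 (exact permutation p = 1, adjusted p = 1). lin-4 with mir-26 had r of 0.74 (exact permutation p = 0.0681, adjusted p = 0.442) and rho of 0.77 (exact permutation p = 0.103, adjusted p = 0.445), and r was 0.077 without the same libraries. For the row mir-10, r was -0.48 with let-7 and -0.015 with lin-4 (exact permutation p = 0.346 and 0.978, adjusted p = 0.840 and 0.978). The rho of those pairs was -0.77 and 0.26 (exact permutation p = 0.103 and 0.658, adjusted p = 0.445 and 0.949), and r without the 2 farthest libraries was -0.41 and 0.31.

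By adjusted p, 1 pair turned on the scaling. let-7 and mir-9 had r of -0.55 with TMM (exact permutation p = 0.253, adjusted p = 0.840), rho of -0.37 (exact permutation p = 0.497, adjusted p = 0.923) and r of 0.31 without libraries 2 and 6. With plain CPM, r was -0.97 (exact permutation p = 0.00278, adjusted p = 0.0361) and -0.998 without libraries 2 and 6. The rho with plain CPM was -0.94 (exact permutation p = 0.0167), which did not pass after adjustment (adjusted p = 0.217). Plain CPM also moved let-7 with mir-26, from r of -0.36 with TMM (exact permutation p = 0.486, adjusted p = 0.840) to -0.85. The latter did not pass after adjustment (exact permutation p = 0.0333, adjusted p = 0.217), nor did its rho of -0.77 (exact permutation p = 0.103, adjusted p = 0.445).

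Rows whose ratio to each family was most constant were found by the SD over 6 libraries of the log2 ratio of counts, a measure in which the scaling cancels. Over the other 213 tested features the median SD of the ratio was 0.32 to let-7 and 0.34 to lin-4. Closest to let-7 was mir-BART15, a name given to a miRNA of Epstein-Barr virus, with an SD of 0.061. The row stood at 4784 ± 222 CPM in these libraries, and what reads it holds is not known. It was followed by the oligodendrocyte family mir-219 with 0.066, mir-19, a family of the growth-promoting miR-17-92 cluster, with 0.080, mir-181 with 0.082 and mir-46 with 0.089. Closest to lin-4 was mir-9 with an SD of 0.067, followed by mir-50 with 0.092, mir-727 with 0.10, mir-19 with 0.11 and the oligodendrocyte family mir-338 with 0.12. let-7 and lin-4 were not each other's nearest: the SD of their ratio, 0.14, put lin-4 in place 26 of 213 for let-7 and let-7 in place 11 of 213 for lin-4. The measure favours rows that vary little in themselves, as mir-19 with a log2 SD of 0.077 stood on both lists, and these ranks carry no test.

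**Figure D4:**
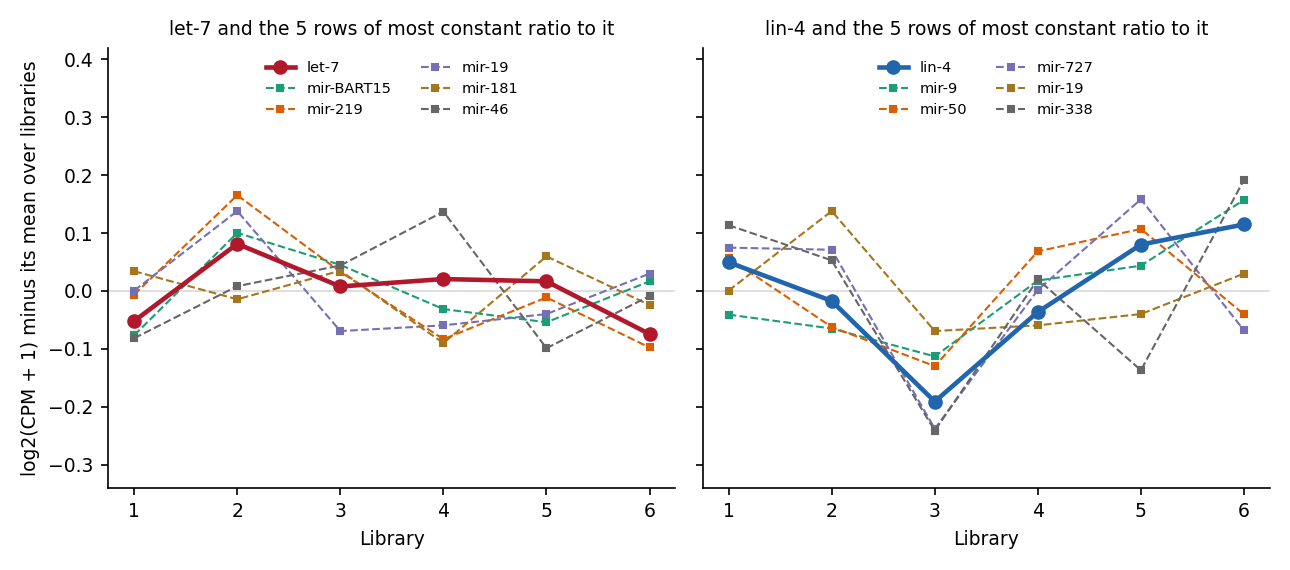
Log2(CPM + 1) minus its mean over 6 libraries for let-7 (left, red) and lin-4 (right, blue), each with the 5 rows of most constant ratio to it (dashed); lines only join the points of a row, since libraries have no order. let-7 stays within -0.074 and 0.081 of its mean, and lin-4 ranges from -0.19 in library 3 to 0.11 in library 6.

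Names of close relatives took few counts beside the 2 families. Of 8 let-7 relatives looked for, 2 had a row, and of 3 lin-4 relatives none did: mir-125, mir-237 and mir-351 matched no row by their own names. The row mir-48, in worms a sister of let-7 that also times larval stages, stood at 96.9, 79.6, 185.9, 104.6, 167.7 and 133.3 CPM in libraries 1 to 6. That is a mean of 128.0 ± 41.99 CPM (SD, n = 6), or 0.148% of the let-7 counts summed over libraries. It was highest in libraries 3 and 5 and lowest in library 2, where let-7 was highest. The row mir-202, a family known from the gonads of fish, stood between 7.18 CPM in library 5 and 15.4 CPM in library 2, or 0.0138% of the let-7 counts. Neither row was called for variation by edgeR (adjusted p = 0.99988 each, against 3.74% of all features called), at an unadjusted p under 0.05 (8.41% of all) or as a DESeq2 outlier (1.4%). Both passed the Poisson index, as did 82.7% of all features, so these counts lie where most rows do. What reads the mir-48 row holds is not known. How reads matching more than 1 row were counted is not given either, so the split between let-7 and mir-48 is uncertain.

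Among the other lists, the 4 neural differentiation families all had rows, and 0 of 4 were called for variation by edgeR, where 3.74% of all features were. None of the 4 had an unadjusted edgeR p under 0.05 (8.41% of all) or was a DESeq2 dispersion outlier (1.4%), and all 4 passed the Poisson index (82.7%). With shares this low or high over all features, such counts are no result about the 4 families. The activity-regulated family mir-132 was at 19494 ± 2960 CPM (SD, n = 6), and its counts were 36.4% of those of lin-4. Of 5 growth and early embryo families 4 had rows, and 1 of them, early-embryonic mir-430, was called by edgeR (adjusted p = 4.6e-04, against 3.74% of all features called), between 1.09 and 15.4 CPM. That call was lost without library 2 (adjusted p = 0.134), and mir-430 was not a DESeq2 dispersion outlier. mir-17 at 977.2 ± 80.9 CPM and mir-19 at 1205 ± 66.1 CPM had 1.11% and 1.37% of the let-7 counts, and mir-92 at 17034 ± 2224 CPM had 19.2%. Of 5 other worm names 2 had rows and neither was called by edgeR (3.74% of all features), at an unadjusted p under 0.05 (8.41%) or as a DESeq2 outlier (1.4%), while both passed the Poisson index (82.7%). mir-34, a family induced by p53 in vertebrates, was at 256.8 ± 24.9 CPM. lsy-6, in worms the switch of left and right identity of a pair of taste neurons, was at 39.9 ± 9.61 CPM (SD, n = 6), lowest in library 5 with 23.5 CPM. As for mir-BART15, what reads the lsy-6 row holds in these libraries is not known.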

How the data were processed

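Small RNA was measured in 6 brain libraries of a single group. The authors deposited raw counts, whole numbers per miRNA family or predicted feature, in 1 table of 324 features. The submitters' processing notes name SAMtools 1.3.1-9, BWA 0.7.12-r1039, Trimmomatic 0.36 and bcl2fastq 1.8.4. Their roles, the build, the annotation and the handling of multiply matching reads were not given in the sources used here. Replicate numbers follow accession order and only name the libraries.

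From these counts, TMM factors (edgeR 4.0.16, R 4.3.3) gave CPM (counts per 1000000), and log2 values are log2(CPM + 1). Variation between libraries was tested over the 214 features whose mean count was 10 or more. An intercept-only negative binomial model at edgeR's trended dispersion was used, with the goodness-of-fit p adjusted by Benjamini-Hochberg over all 214 features (threshold 0.05). In 10 runs on data simulated for these 214 features, that test found 68% of features with an added log2 SD of 2 and 8% of features with an added log2 SD of 1. It made 0 false calls, on unchanged features drawn at the dispersion that the test assumes.

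Ratios within a library were tested by an exact sign-flip permutation test (two-sided), and correlations by all 720 pairings (NumPy 2.4.6), each adjusted over its 13 pairs. Intervals are exact (Clopper-Pearson, SciPy 1.17.1) and cover counting error only. DESeq2 1.42.0, plain CPM, totals without mir-181, a Poisson index and leaving out each library were the alternatives.

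Besides let-7 and lin-4, the families named are 28 fixed relatives and partners (13 present), the neighbours in mean level, the rows among the 15 most abundant with a lower spread, and the 5 rows of most constant ratio to each family. Also named are families of the cell type marker lists, such as mir-122, mir-203 and mir-205, and mir-8, which was on no list. Families, lists and tests were chosen with earlier results of these data known.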

Additional observations from a re-analysis of the deposited data

Results flagged for a closer look

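Dixon's criterion for 6 values was applied to 31 levels, shares and ratios. In 2 of them a library lay apart from the rest, and chance alone marks about 1 in 20, or 1.55 of 31. The log2 ratio of lin-4 over mir-128 was -0.84 in library 4, against -0.23 to -0.061 in the others. In library 4 lin-4 was at 51795.5 CPM, within its usual range, and mir-128 at 92541 CPM, against 49363 to 65578 CPM in the others for mir-128. The growth-linked row mir-92 was at 21417 CPM in library 5, against 15130 to 16897 CPM in the others, and let-7 and lin-4 were at 88939.5 and 56150 CPM there. No level, share or mutual ratio of let-7 and lin-4 themselves stood apart.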

How the results depend on the processing

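No paired analysis was possible because all libraries belong to 1 group. With mir-181 left out of the total, the let-7 level was 124334 CPM and that of lin-4 75234 CPM, and the shares were 12.5%, 7.52% and, jointly, 19.97%, because the total shrank. DESeq2 size factors and plain CPM moved neither level by 1 SD. These scalings were set to the same average library size as TMM, so a mean over the 6 libraries could hardly move. Leaving out each library in turn kept the log2 ratio of let-7 over lin-4 between 0.69 and 0.76. The number of pairs of ratios past the threshold was then 0 under each of the 6 omissions, because 5 libraries cannot give an exact p under 0.0625. For variation between libraries, the count of called features was 8 by edgeR, 177 by the Poisson index and 3 as DESeq2 dispersion outliers, and 6 to 9 without any single library. By the Poisson index the value was 1751 for let-7 and 4412 for lin-4. The log2 SD of lin-4 lay between 0.064 and 0.12 when single libraries were left out, and that of let-7 between 0.044 and 0.062. The correlation of let-7 with lin-4 stayed negative, between -0.73 and -0.16 without any single library, where only r was computed. It did not pass with DESeq2 size factors, plain CPM, a total without mir-181 or a pseudocount of 0.5. With plain CPM, 1 correlation passed, that of let-7 with mir-9 (-0.97). Correlations that had not passed changed sign: with plain CPM let-7 had 0.53 with mir-181, -0.21 with mir-128 and 0.38 with mir-124, and lin-4 had -0.076 with mir-181, -0.051 with mir-128 and 0.012 with mir-10. lin-4 with mir-181 was also -0.045 with DESeq2 size factors and -0.028 without mir-181 in the total. The cause of these sign changes was not tested. The counts of let-7 and lin-4 in a library lay between 606847 and 1536471, which bounds counting error only.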
